A study of Homo sapiens with 6 samples.

Results

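Immediate-early genes are switched on within minutes of a growth or stress signal, without new protein synthesis, and their messenger RNAs are destroyed soon afterwards. The 10 genes described here, FOS, FOSB, JUN, JUNB, EGR1, EGR2, IER2, DUSP1, ZFP36 and BTG2, were chosen by name, with every probe that carries their symbol on the array. Each was represented by 1 probe, so they make up 10 of 50586 probes and 10 of 36328 gene names. The symbols of all 10 were the same in the current RefSeq gene table.

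The cells were MOLT-4, a cell line grown from a patient's acute lymphoblastic leukaemia of the T lineage. They carried either an empty vector, called mock, or a vector for NUDT16, an enzyme that removes the cap from RNA, with 3 arrays in each group. From each sample 20 µg of total RNA went into an immunoprecipitation with an antibody against m3G and m7G caps, and the eluate was hybridised in 1 colour (Cy3) to an Agilent array. The series asks which capped transcripts gain or lose signal when NUDT16 is supplied. The labels do not say whether the 3 samples of a group came from separate cultures, whether the transfection was transient or a clone, or by which promoter NUDT16 was driven, so p-values measure the spread between these samples only. The input RNA was not analysed here. A lower eluate signal from less RNA, from fewer capped molecules, or from fewer cells that make the RNA cannot be told apart.

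As background, growth-factor and stress kinases phosphorylate transcription factors that already sit on these promoters. Among them are the serum response factor, which binds CArG boxes, and CREB, whose site contains TGACG. FOS and JUN proteins form the AP-1 dimer, and EGR proteins are zinc-finger activators. DUSP1, ZFP36 and BTG2 feed back by dephosphorylating the kinases or by destabilising the messenger RNAs. Many immediate-early messengers carry AU-rich elements, which recruit deadenylases. Loss of the poly(A) tail is normally followed by removal of the cap and digestion from the 5′ end, and NUDT16 is one of several enzymes that can remove it.

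The promoters were searched for both of these elements. RefSeq promoter windows (GRCh38.p14, 250 bases before to 50 after each annotated start) were matched for all 10 genes, in 12 windows because EGR2 has several starts. A CArG box was found on either strand in 2 of the 12 windows, those of EGR1 and EGR2, against 1.29% of 35116 windows of the same length. TGACG, read on both strands, was found in 9 of the 12 windows and in 9 of the 10 genes, ZFP36 being without it, against 24.6% of all windows. A full palindrome such as TGACGTCA counts as overlapping matches on both strands. A match describes letters only, and its absence from the window says nothing of the factor. The following stretches, 5′ to 3′ on the gene's strand, are those of the members tested below, apart from ZFP36, together with EGR2 for its CArG box, and capitals mark CArG boxes and TGACG or its reverse complement CGTCA.
EGR1, chr5:138465332-138465429, + strand: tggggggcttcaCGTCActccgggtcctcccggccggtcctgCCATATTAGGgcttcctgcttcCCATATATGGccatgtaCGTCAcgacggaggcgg
EGR2, chr10:62816404-62816488, - strand: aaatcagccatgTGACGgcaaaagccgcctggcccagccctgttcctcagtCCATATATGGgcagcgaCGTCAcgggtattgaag
DUSP1, chr5:172771290-172771379, - strand: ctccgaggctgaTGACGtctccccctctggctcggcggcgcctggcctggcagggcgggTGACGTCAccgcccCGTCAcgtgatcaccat
IER2, chr19:13150259-13150287, + strand: cacccccgccccCGTCAcgccaccatcga
JUN, chr1:58784154-58784182, - strand: gagtctccatggTGACGggcgggcccgcc
BTG2, chr1:203305297-203305325, + strand: ggttcctagcacTGACGacagcgagcgat
EGR1 held 2 CArG boxes and EGR2 held 1, and a CGTCA follows closely after the downstream box of EGR1 and the box of EGR2. DUSP1 held a complete TGACGTCA and no CArG box in its window.

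The arrays limited what could be measured. Between 39.3% and 52.0% of 58717 spots for cell RNA were well above background on 5 arrays, against 14.6% on NUDT16 replicate 2, and no spot was saturated. Signals are given below either as processed intensity, in the scanner's linear units, or as scaled log2 signal. The latter is log2 intensity minus the array's 75th percentile over the 6582 probes that were well above background on all 6 arrays. That percentile stood at 7465, 2701 and 4720 units on mock replicates 1, 2 and 3, and at 7717, 224 and 6948 units on NUDT16 replicates 1, 2 and 3. On NUDT16 replicate 2 the lowest probe well above background therefore lay at a scaled log2 signal of -3.52, against -8.07 to -7.05 on the other 5 arrays. Any gene dimmer than that could not be placed on this array. Mock and NUDT16 arrays of 1 replicate number shared a slide and a scan, and they are compared as pairs below. Neither of the 2 NUDT16 probes was well above background on any array, so these probes did not check the labels. Of 18 T-lineage marker genes, 15 to 17 were well above background on 5 arrays and 11 on NUDT16 replicate 2, CD8B being at background on all 6 arrays and CD3D, CD3E, CD3G and LCK being detected on all 6. Of 6 B-cell markers 1 to 3 were detected, with CD79A on all arrays and PAX5, MS4A1 and CD22 on none.

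Detection differed widely among the 10 genes. On mock replicates 1, 2 and 3, 8, 6 and 8 of them were well above background, and on NUDT16 replicates 1, 2 and 3, 7, 2 and 9. IER2 and BTG2 were measured on all 6 arrays. EGR1, JUN, DUSP1 and ZFP36 were measured on 5, all but NUDT16 replicate 2. JUNB was measured on 4, FOS and EGR2 on 2, and FOSB on none.

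**Figure D1:**
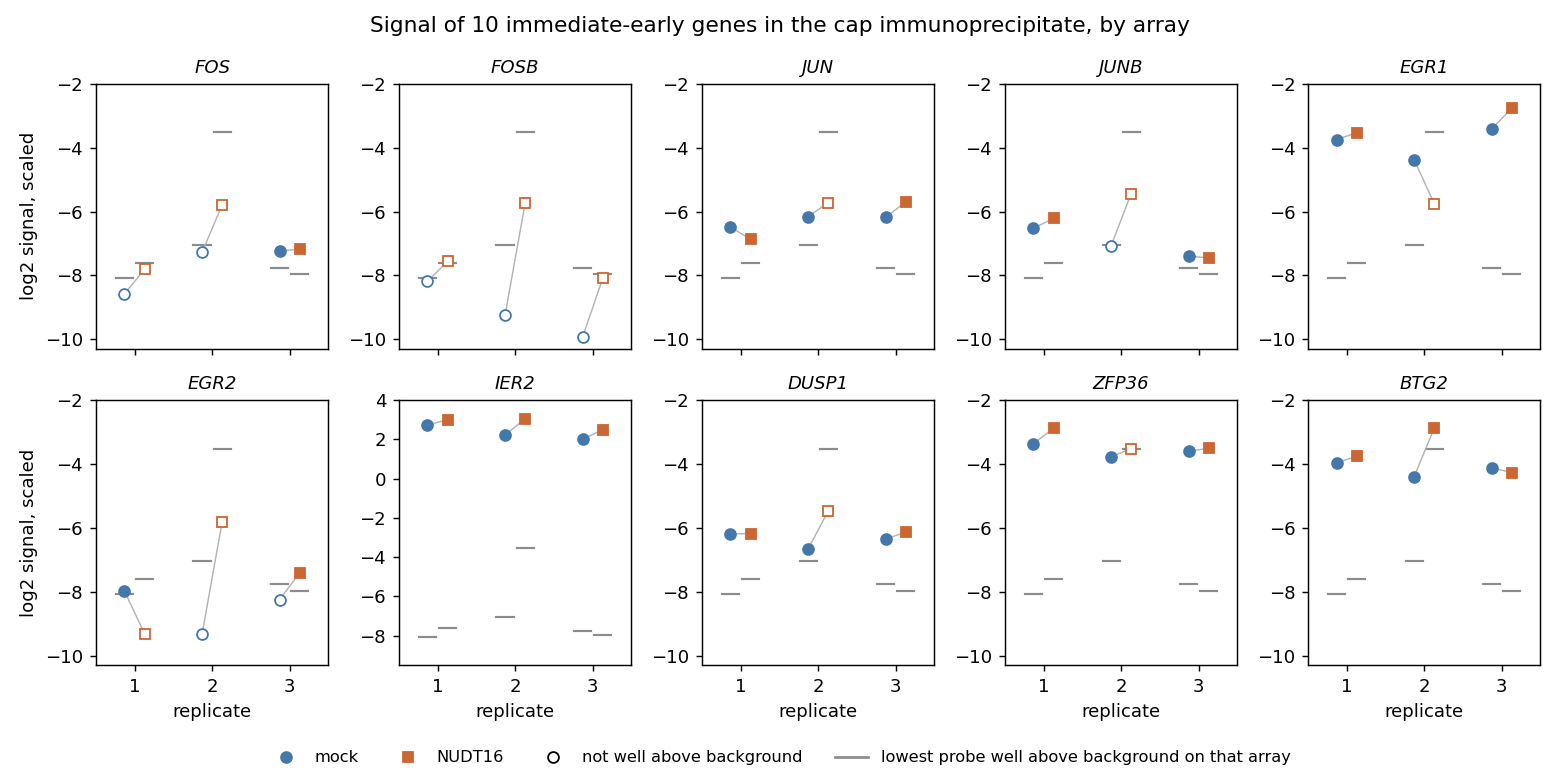
Scaled log2 signal (y axis) of each gene's probe by replicate number (x axis), mock as circles and NUDT16 as squares, joined within a slide. Open symbols were not well above background and grey ticks mark the lowest probe well above background on that array, which is -3.52 on NUDT16 replicate 2. The IER2 panel has its own y range.

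FOS and FOSB encode the subunits that give AP-1 its strong activity. The FOS probe (A_23_P106194, NM_005252) lies on chromosome 14, positions 75748214 to 75748273 (hg19, + strand), from base 1434 of the transcript. Its intensity was 19.6, 17.4 and 31.3 units on mock replicates 1, 2 and 3 and 34.4, 4.04 and 48.0 units on NUDT16 replicates 1, 2 and 3. It was well above background on mock replicate 3 and NUDT16 replicate 3 only. On that slide the scaled log2 signals were -7.24 in mock and -7.18 in NUDT16, a difference of 0.06. The FOSB probe (A_23_P429998, NM_006732; chromosome 19, positions 45978205 to 45978264, hg19) gave 4.44 to 25.7 units in mock and 4.22 to 41.0 units in NUDT16 arrays, all at background. No fold is given for FOSB. The best-known AP-1 gene was thus measured in 1 slide of 3, and FOSB in none.

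JUN and JUNB encode the partners of FOS, JUNB being the weaker activator of the pair. The JUN probe (A_33_P3323298, NM_002228) lies on chromosome 1, positions 59246511 to 59246570 (hg19, - strand). Its intensity was 83.1, 37.7 and 65.2 units in mock and 66.1, 4.21 and 133 units in NUDT16 arrays. In scaled log2 signal mock read -6.49, -6.16 and -6.18, and NUDT16 read -6.87, a background value and -5.71. JUN was thus 0.38 lower in NUDT16 in the pair of replicate 1 and 0.47 higher in that of replicate 3, so the pairs had opposite signs. The JUNB probe (A_24_P241815, NM_002229; chromosome 19, positions 12902998 to 12903057, hg19, + strand) begins at base 688 of its transcript. It read 81.4 units in mock and 104 in NUDT16 for replicate 1, and 27.9 and 39.8 units for replicate 3. The JUNB differences in scaled log2 signal were 0.30 and -0.05 in these pairs, and on replicate 2 both arrays were at background. The slides differed more than the groups: mock JUNB was -6.52 on replicate 1 and -7.40 on replicate 3.

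EGR1, a zinc-finger activator and a standard marker of ERK signalling, was read by probe A_23_P214080 (NM_001964), chromosome 5, positions 137804891 to 137804950 (hg19, + strand). Its intensity was 554, 130 and 441 units in mock and 667, 4.14 and 1021 units in NUDT16 arrays. The scaled log2 signals were -3.75, -4.38 and -3.42 in mock, and -3.53, a background value of -5.75 and -2.77 in NUDT16. NUDT16 replicate 3 had the highest EGR1 signal of the 6 arrays. The differences were 0.22 and 0.65 in the pairs of replicates 1 and 3. In the pair of replicate 2 the NUDT16 spot carried a value substituted by the scanner software, so its difference of -1.38 set a measured mock signal against background. The mock signal of that slide, -4.38, lay below the -3.52 needed for detection on NUDT16 replicate 2. EGR2, a relative with roles in T cells and myelination, was at or near background (A_23_P46936, NM_000399; chromosome 10, positions 64571850 to 64571909, hg19). It was well above background on mock replicate 1, at 29.6 units, and on NUDT16 replicate 3, at 40.9 units, and so on both arrays of no slide.

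IER2, a small nuclear protein linked to cell movement and proliferation, was the best measured of the 10. Its probe (A_32_P36235, NM_004907) lies on chromosome 19, positions 13265586 to 13265645 (hg19, + strand). Its intensity was 49479, 12432 and 18802 units in mock and 61161, 1855 and 38822 units in NUDT16 arrays. The scanner software estimated the error at 10% on each, which is not a measured spread, since the probe had 1 spot per array. The scaled log2 signals were 2.73, 2.20 and 1.99 in mock and 2.99, 3.05 and 2.48 in NUDT16 arrays. NUDT16 was above its partner on every slide, by 0.26, 0.85 and 0.49, but the groups overlapped because mock replicate 1 lay above NUDT16 replicate 3. Without scaling the sign of the pair of replicate 2 turned, its intensity ratio being 0.149, against 1.24 and 2.06 for replicates 1 and 3. Of the 6582 probes measured on all 6 arrays, 27% were higher in NUDT16 in all 3 pairs, and of the 2 members measured on all 6 arrays, IER2 was the one that was. Any of these probes below -3.52 on mock replicate 2 could only be higher in NUDT16 on that slide. The 27% is therefore partly set by the filter, and the median replicate 2 difference was 0.35 over these probes, against 0.09 over all probes tested.

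DUSP1, the phosphatase that switches off MAP kinases, had its probe (A_23_P110712, NM_004417; chromosome 5, positions 172195296 to 172195355, hg19, - strand) printed at 10 spots per array, of which 8 to 10 were usable, which gives the technical error directly. The mean intensity was 103, 26.5 and 57.7 units in mock and 106, 5.02 and 98.9 units in NUDT16 arrays. The standard deviation between spots was 0.16, 0.31 and 0.20 on the log2 scale on mock replicates 1, 2 and 3, and 0.13 and 0.09 on NUDT16 replicates 1 and 3. On NUDT16 replicate 2, 7 of the 10 spots carried substituted values and none was well above background. The scaled log2 signals were -6.19, -6.67 and -6.36 in mock and -6.18, background and -6.13 in NUDT16 arrays. The pair of replicate 1 was level, differing by 0.0023, and that of replicate 3 differed by 0.22. On the arrays of replicate 3 the standard error of the mean over spots was 0.062 in mock and 0.033 in NUDT16, which covers the technical error of 1 hybridisation only. The NUDT16 values all lay above the mock values for DUSP1, but the lowest did so by that 0.0023 and the highest was a background value.

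ZFP36 encodes tristetraprolin, which binds AU-rich elements and brings in the deadenylase, and BTG2 is an antiproliferative protein that also binds the deadenylase. The ZFP36 probe (A_23_P39237, NM_003407) lies on chromosome 19, positions 39899758 to 39899817 (hg19, + strand). It read 723, 197 and 387 units in mock and 1042, 19.4 and 610 units in NUDT16 arrays. The scaled log2 signals were -3.37, -3.78 and -3.61 in mock and -2.89, -3.53 and -3.51 in NUDT16 arrays, the value of NUDT16 replicate 2 lying just under the limit of detection. ZFP36 was 0.48 and 0.10 higher in NUDT16 in the pairs of replicates 1 and 3. The BTG2 probe (A_23_P62901, NM_006763; chromosome 1, positions 203278454 to 203278513, hg19, + strand) read 476, 127 and 270 units in mock and 570, 30.4 and 360 units in NUDT16 arrays. BTG2 was well above background throughout, at -3.97, -4.41 and -4.13 in mock and -3.76, -2.88 and -4.27 in NUDT16 arrays. The pairs differed by 0.21, 1.53 and -0.15, so NUDT16 replicate 2, the dimmest array, held the high value. There the scanner software estimated the error of BTG2 at 17.4%. The mock signal of that slide, -4.41, lay below the -3.52 needed for detection on NUDT16 replicate 2. Detection of BTG2 on both arrays of that slide was therefore possible only with a difference above 0.

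No member was called between the groups. A linear model (limma, Benjamini-Hochberg adjustment, threshold 0.05) was fitted to the 17765 probes that every array of 1 group or the other measured well above background. It called 1 probe, or 0.00563%, which reads the NUDT16 pseudogene NUDT16P1 (limma adjusted p 0.00155). It was well above background on 3 NUDT16 arrays and on 0 mock arrays, and so passed the filter through the NUDT16 group alone. The signal of this probe was at least 31.7-fold higher in NUDT16, with each mock array set at its lowest probe well above background. The other NUDT16P1 probe was well above background on 0 arrays of either group. Of the 10 members 6 passed the filter, 4 of them through the mock group alone, and 0 of the 6 were called. None had an unadjusted p under 0.05 in limma either, against 0.045% of all probes, and in a fit blocked on replicate number 0 were called and 0 had an unadjusted p under 0.05, against 9.76% of all probes.

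IER2 averaged 2.31 ± 0.38 (SD, n = 3) over the mock arrays and 2.84 ± 0.31 (SD, n = 3) over the NUDT16 arrays, a log2 difference of 0.53 (SE 0.58, limma adjusted p 0.999). For BTG2 the means were -4.17 ± 0.22 (SD, n = 3) and -3.64 ± 0.71 (SD, n = 3), differing by 0.53 (SE 0.61). The BTG2 difference includes the pair of replicate 2, whose sign was fixed by detection on both arrays. In the fit blocked on replicate number the standard errors were 0.31 for IER2 and 0.41 for BTG2, below both differences, and the limma adjusted p was 0.494 and 0.556. EGR1 averaged -3.85 ± 0.49 (SD, n = 3) without NUDT16 and -4.02 ± 1.55 (SD, n = 3) with it, the wide spread coming with the background value of replicate 2, and differed by -0.17 (SE 0.78). DUSP1 differed by 0.47 (SE 0.58), ZFP36 by 0.28 (SE 0.58) and JUN by 0.17 (SE 0.60), and these too include a value of NUDT16 replicate 2 that was not well above background. Every limma adjusted p of the 6 was 0.999. Exact two-sided permutation tests over the arrays gave p = 0.2 for IER2, 0.3 for BTG2, 0.9 for EGR1, 0.1 for DUSP1, 0.4 for ZFP36 and 0.6 for JUN, where 3 arrays against 3 cannot go below 0.1. These permutations split the 6 arrays freely and ignored their pairing by slide, so arrays of different slides were treated as interchangeable. The groups overlapped for 5 of the 6, DUSP1 being the exception, and they did not overlap for 0.591% of all probes tested. Without scaling between arrays all 6 differences were below 0.

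The differences within slides are free of the spread between slides. In the pair of replicate 1 the 17765 probes had a median difference of -0.36, with the middle 50% between -0.74 and 0.05. In that of replicate 3 the median was -0.06 and the middle 50% lay between -0.32 and 0.21. In that of replicate 2 the range was wider, from -0.82 to 0.86. Only 6898 probes were well above background on NUDT16 replicate 2, so most of the 17765 entered that pair with a background value. ZFP36 stood at percentile 95.2 of all tested probes in the pair of replicate 1 and at 65.3 in that of replicate 3. EGR1 stood at 83.7 and 97.6, IER2 at 85.4 and 93.3, and JUN at 49.0 and 92.7. BTG2 stood at 83.4 and 41.3, and DUSP1 at 72.2 and 76.1. Of the 6, EGR1 and IER2 lay above percentile 75 on both slides, as did 13.2% of all probes tested.

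**Figure D2:**
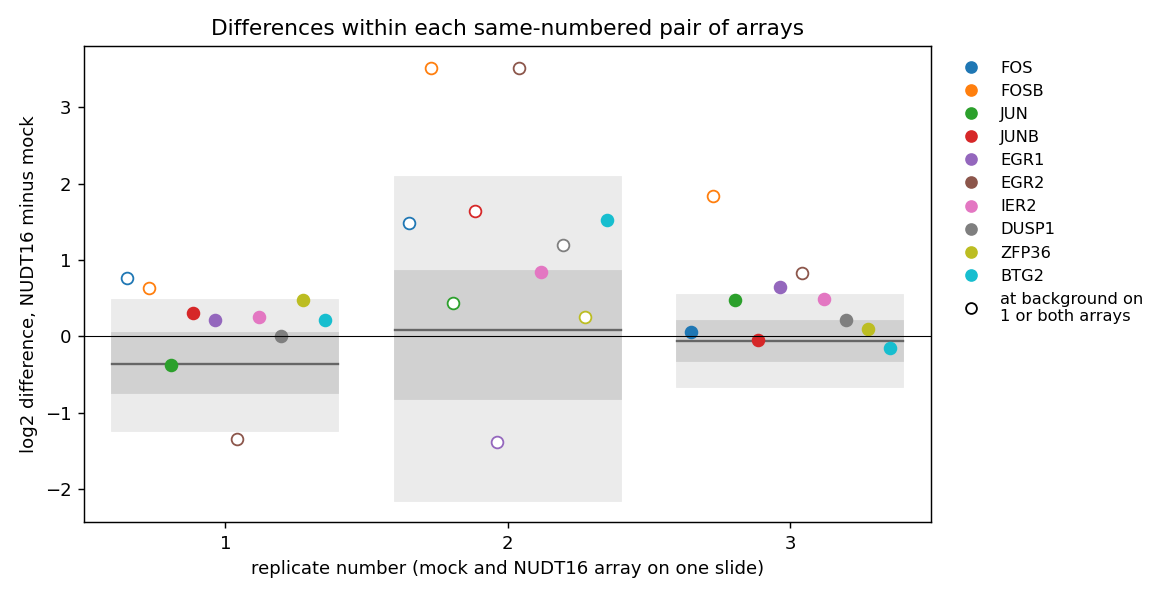
Log2 difference, NUDT16 minus mock (y axis), within each same-numbered pair of arrays (x axis). Points are the 10 genes, open where 1 or both arrays were at background. Dark and light bands run from the 25th to the 75th and from the 5th to the 95th percentile of 17765 probes and the grey line is their median, -0.36, 0.09 and -0.06 for replicates 1, 2 and 3. For replicate 2 most of these probes had a background value on the NUDT16 array.

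A paired fit on replicates 1 and 3, with the filter applied to their 4 arrays, tested 7 members, JUNB now among them. This fit was not planned and was chosen after the data were seen. The limma differences were 0.44 for EGR1 (SE 0.29, adjusted p 0.462), 0.37 for IER2 (SE 0.29, adjusted p 0.518) and 0.29 for ZFP36 (SE 0.29, adjusted p 0.607). JUNB stood at 0.13, DUSP1 at 0.11, JUN at 0.05 and BTG2 at 0.03, with adjusted p from 0.822 to 0.959 in limma. The standard errors of these were 0.29 to 0.31, larger than each of the differences. All 7 were measured on the 4 arrays and were above 0, against 34% of the 18769 probes so measured. Of the 7, 0 were called, against 2 of those 18769 probes and 0.523% of all 22387 probes in the fit. None of the 7 had an unadjusted p under 0.05 in limma, against 16.2% of the 22387, which include probes not measured on all 4 arrays. The median of the 7 was 0.13, beside -0.18 over the probes measured on the 4 arrays. EGR1, IER2, ZFP36 and DUSP1 were higher in NUDT16 in both pairs, which is 4 of the 7 members, and so were 22.1% of 18769 probes measured on the 4 arrays. For DUSP1 1 of the 2 differences was the 0.0023 given above. In unscaled intensity the 8 members measured on both arrays of replicate 3 were all higher in NUDT16, from 1.33-fold for BTG2 to 2.32-fold for EGR1, while the array's own 75th percentile was 1.47-fold higher. BTG2 and JUNB, the latter at 1.42-fold, lay below that shift and therefore had negative scaled differences.

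The rest of the pathway was read from 4 lists of related genes, in which 0 probes were called with all 6 arrays. Few of the tested probes were well above background on all 6 arrays, 3 of 13, 7 of 18, 4 of 20 and 7 of 23 in the order of the lists below. Each list is therefore described by the paired fit on replicates 1 and 3, over the probes measured on all 4 of those arrays, a choice made after the values were seen. The median difference over all such probes was -0.18, with 6385 higher (34%) and 12384 lower, and 0 probes of the 4 lists were called. The 18 other immediate-early transcription factors, such as FOSL2, ATF3 and NR4A1, had 15 of 26 probes so measured, 6 higher and 9 lower in NUDT16, with a median difference of -0.13. EGR3, EGR4 and NR4A1 were at background on all arrays. JUND, the AP-1 subunit that is least dependent on stimulation, was detected on all 6 arrays and had pair differences of 0.35, 2.18 and -0.18 (limma difference 0.78, SE 0.68, adjusted p 0.999). The 21 other feedback regulators and early-response genes, such as DUSP6 and GADD45A, had 22 of 25 probes so measured, 12 higher and 10 lower, with a median of 0.10. The genes given with pair values here are those with the smallest p in each direction among the list's probes detected on all 6 arrays. On mock replicate 2 JUND (-4.73) and PLK3 (-3.91) lay below the -3.52 needed for detection on NUDT16 replicate 2. Choosing among probes detected on all 6 arrays therefore fixed the sign of their replicate 2 difference. PLK3, a stress-responsive kinase, differed by 0.48, 1.46 and 0.49 in the 3 pairs (limma difference 0.81, SE 0.65, adjusted p 0.999), and GADD45A, a growth-arrest protein, by -0.61, -1.72 and -0.13 (limma difference -0.82, SE 0.89, adjusted p 0.999).

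The ERK and serum response factor pathway upstream had 21 of 26 probes measured on the 4 arrays, 6 higher and 15 lower, with a median of -0.24. The share higher was 28.6%, near the 34% over all probes so measured. ELK4, a cofactor of the serum response factor, differed by -0.63, -0.9995 and -0.43 in the 3 pairs, and RPS6KA1, a kinase downstream of ERK, by 0.10, 1.12 and -0.25. The 15 relatives and partners of ZFP36 and BTG2 in messenger RNA destabilisation had 22 of 23 probes so measured, 3 higher and 19 lower, with a median of -0.23. HNRNPD, also called AUF1, which binds AU-rich elements, differed by -0.84, -1.18 and -0.21 (limma difference -0.74, SE 0.67, adjusted p 0.999), and a probe of KHSRP, another such protein, by -0.30, 1.21 and 0.00. The other KHSRP probe, also detected on all 6 arrays, differed by 0.14, -1.11 and 0.62, so the 2 probes disagreed in sign in the pairs of replicates 1 and 2. On mock replicate 2 RPS6KA1 (-4.21) and the dimmer KHSRP probe (-4.58) lay below the -3.52 needed for detection on NUDT16 replicate 2. Their replicate 2 differences of 1.12 and 1.21 could therefore only be positive once both arrays detected them.

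**Figure D3:**
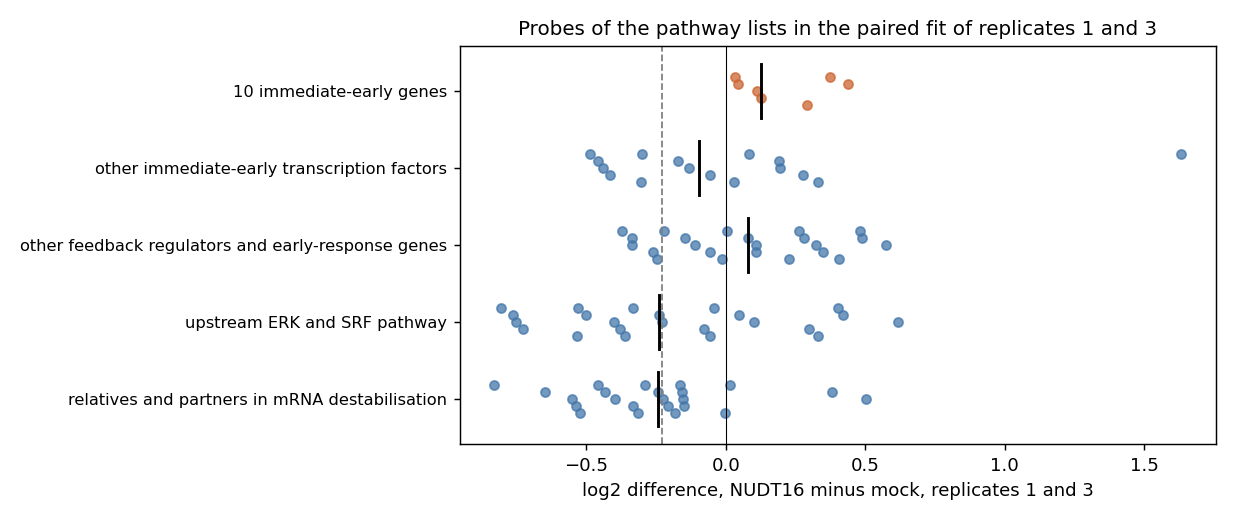
Log2 difference, NUDT16 minus mock, in the paired fit of replicates 1 and 3 (x axis), 1 point per probe, for the immediate-early genes (orange) and 4 related lists (blue). Black bars are list medians over the probes of that fit, 0.13 for the immediate-early genes, and the dashed line is the median of all 22387 probes, -0.23. The point at 1.63 is a CSRNP1 probe that was well above background on 1 mock array and 2 NUDT16 arrays.

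For the members measured on every array, the probes of most similar pattern were sought among the 6582 probes measured on all 6 arrays, by the root mean square difference of log2 signals centred on each probe's mean. For IER2 they were CALM3 (0.068) and LSM2 (0.079), where the median over probes was 0.67. For BTG2 they were C2CD4C (0.048) and RUSC2 (0.081), with a median of 0.74. The match covers differences between slides as well as between groups.

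The differences also depended on how the arrays were put on 1 scale. Without any scaling EGR1 stood at -1.16, ZFP36 at -0.72 and IER2 at -0.46, and the median of all probes was -1.10. With normexp background correction EGR1 stood at 0.85 and with quantile normalization at -1.23, while IER2 lay between 0.37 and 0.74 in all settings but the unscaled one.

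**Figure D4:**
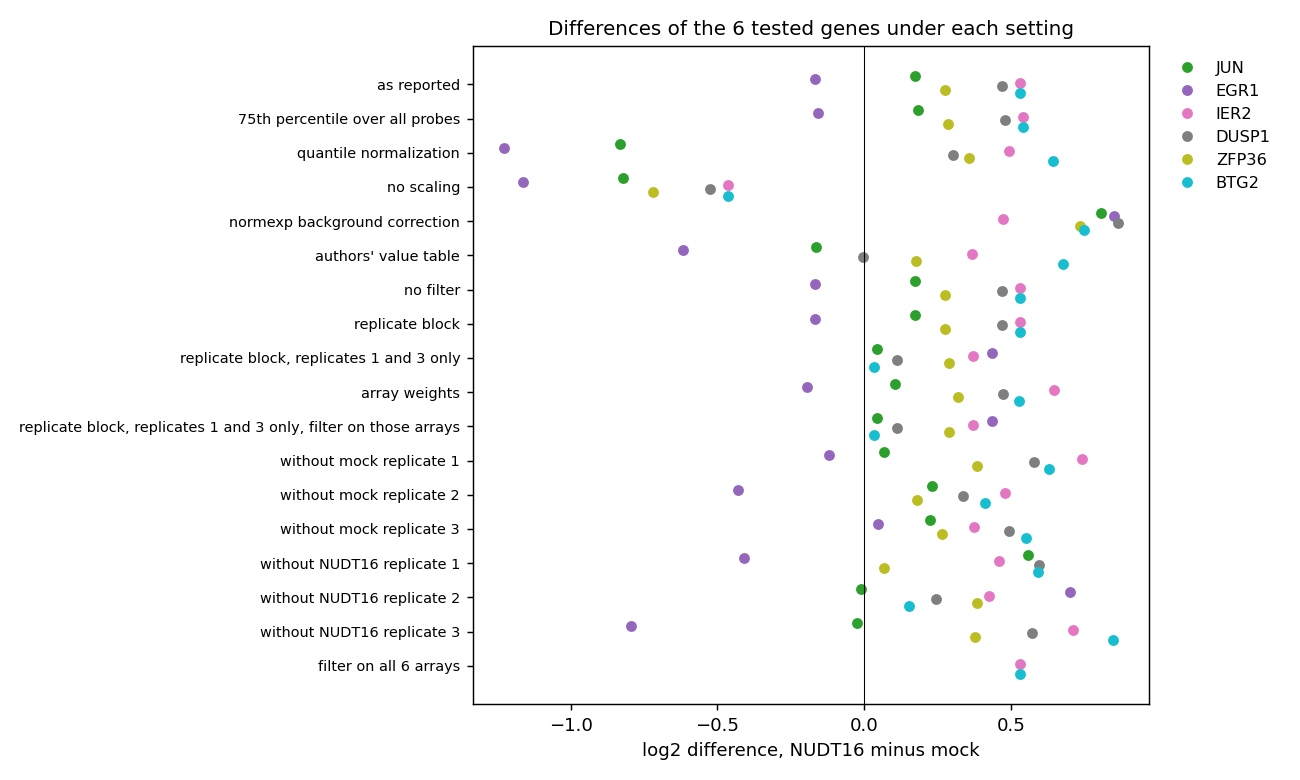
Log2 difference, NUDT16 minus mock (x axis), of the 6 tested genes under each setting (y axis). EGR1 ranges from -1.23 to 0.85 and JUN from -0.83 to 0.81, and IER2 is above 0 in all settings shown except no scaling; no point passed the threshold.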

How the data were processed

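Per the file headers, the arrays are Agilent design 039494 on hg19, read with Feature Extraction 10.7.3.1; the deposited intensity is background subtracted and detrended, with substituted values for dim spots, and not normalized between arrays. The value table that the authors deposited holds log2 values; its making is not given in the sources used here, its rank order equals that of median spot minus median background, and its centring is unknown. It served as an alternative.

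Control and outlier spots were dropped and spots of 1 probe averaged. Log2 intensity was scaled to the 75th percentile over probes well above background on all 6 arrays, because the percentile over all probes falls among background spots on NUDT16 replicate 2. A probe was well above background where over 50% of its spots were. Tests used limma 3.58.1 in R 4.3.3, two-sided, and were run on simulated data. The simulated arrays had equal spread for a probe and no dim array, background floor or substituted values. That check therefore does not cover the conditions of NUDT16 replicate 2. Replicate numbers follow slide and scan, and deviations from group means correlated at 0.84, 0.39 and 0.77 within pairs, so the numbers pair the arrays. Named genes were all members, the probe of smallest p in each direction per list among those detected on all 6 arrays, and 2 of similar pattern per member so detected. Other settings were scaling, background correction, filter, block, array weights and leaving arrays out. Members and lists were chosen with earlier results of these data known. Coordinates are hg19 for probes, without exon positions, and GRCh38.p14 for promoters. The number of arrays limits precision.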

Additional observations from a re-analysis of the deposited data

How the results depend on the processing

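No member was called under any of the 17 other settings. The limma adjusted p of the members ranged from 0.442 to 1 over 98 values, of which 83 kept their direction and 15 did not. Without scaling IER2 stood at -0.46, DUSP1 at -0.52, ZFP36 at -0.72, BTG2 at -0.46 and JUN at -0.82. JUN stood at -0.83 with quantile normalization and -0.16 with the authors' table, where DUSP1 was at -0.0043. EGR1 stood at 0.85 with normexp and 0.44 with the replicate block on replicates 1 and 3, with either filter. The cause was not tested. Leaving out 1 array gave -0.79 to 0.70 for EGR1, reversed without NUDT16 replicate 2 (0.70) and without mock replicate 3 (0.047). JUN ranged from -0.023 to 0.56, reversed without NUDT16 replicate 2 (-0.011) and replicate 3 (-0.023). BTG2 ranged from 0.15 to 0.85, IER2 from 0.37 to 0.74, DUSP1 from 0.24 to 0.60 and ZFP36 from 0.067 to 0.39. BTG2 stood at 0.15 and DUSP1 at 0.24 without NUDT16 replicate 2, and ZFP36 at 0.067 without NUDT16 replicate 1.

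Over all probes 1 was called with the replicate block, which changed no call of a member. The count was 0 without scaling, with normexp, the authors' table, no filter or the filter on all 6 arrays, where the unadjusted p of limma was under 0.05 for 1, 1, 10, 160 and 2 probes, and 0 to 1 with 1 array left out (0 without mock replicate 2). It was 613 on replicates 1 and 3 with the same filter and 117 with the filter on those arrays, chosen after the data were seen, of which 2 were measured on all 4 arrays. The median of all probes moved from -0.11 to -0.26 with quantile normalization, -1.10 without scaling, 0.47 with normexp and -0.21 with the authors' table. On NUDT16 replicate 2, where signal over background was low, 8 of the 10 genes had no measured level. Of these, FOS, FOSB, JUNB and EGR2 were at background on mock replicate 2 as well.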
